A study of Mus musculus with 6 samples.

Results

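Leukocyte marker and signalling genes were followed in corneas of mice aged 20 weeks. They are 45 genes chosen by name from the 55421 genes in the count files: 19 pan-leukocyte, 19 myeloid and 7 lymphoid. All 45 symbols were found in GENCODE release M21 on GRCm38, the build named in the submitters' processing notes, and all were kept whether or not their counts were low. RNA came from 3 wildtype corneal samples (W1 to W3) and from 3 of animals heterozygous for a Pax6 mutation (M1 to M3). The allele, the strain and the number of animals behind a library are not given in the labels, and the series design calls the libraries biological replicates. The comparison asked how far RNA of these genes differed between the genotypes.

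Leukocytes share a set of genes that other cells use little, among them the surface phosphatase CD45, the beta 2 integrins and the actin regulators of blood cells. Myeloid cells such as macrophages and neutrophils carry innate receptors, complement C1q and the phagocyte oxidase, whereas T cells are defined by the CD3 chains that accompany the T cell receptor. The healthy cornea holds resident macrophages and dendritic cells but few lymphocytes, and leukocyte entry is a known feature of keratopathy in aniridia, the human disorder of PAX6 haploinsufficiency.

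Many leukocyte genes are known targets of PU.1, the ETS factor encoded by the member gene Spi1, which binds a purine-rich core. Promoter windows of RefSeq on GRCm38.p6, 250 bases before to 50 bases after each annotated start, were therefore searched for GAGGAA on either strand, and no other motif was searched. The table held 31 of the 45 members, with 37 windows. The letters were present in 21 of these 37 windows (56.8%) and in 28.3% of the 32851 windows of all genes. Windows at the most upstream start are shown for 4 of the members whose rise below did not depend on any single library. Of the other members of that kind, Lcp1 had no match in any window, and Cd14 and Itgae had no window. Capitals mark GAGGAA or its reverse complement TTCCTC. Itgam had 3 matches, starting at positions -84, -15 and 33 from the start site. Ptprc had 1 at -158 and Laptm5 had 1 at -38, while this Arhgdib window had none. A window at another Arhgdib start had 1 at -134. A further Arhgdib window and a window at another Ptprc start had none. The windows shown lie at chr7:128062390-128062689 on the plus strand (Itgam) and chr1:138175256-138175555 on the minus strand (Ptprc). Those of Laptm5 and Arhgdib lie at chr4:130913066-130913365 on the plus strand and chr6:136941850-136942149 on the minus strand. A match is a string of letters and not a measured binding site.
Itgam: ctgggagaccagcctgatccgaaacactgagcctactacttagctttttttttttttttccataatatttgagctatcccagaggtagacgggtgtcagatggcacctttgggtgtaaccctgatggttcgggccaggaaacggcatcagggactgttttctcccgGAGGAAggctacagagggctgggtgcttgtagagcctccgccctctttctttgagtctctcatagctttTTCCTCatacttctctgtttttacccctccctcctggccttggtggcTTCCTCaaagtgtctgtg
Ptprc: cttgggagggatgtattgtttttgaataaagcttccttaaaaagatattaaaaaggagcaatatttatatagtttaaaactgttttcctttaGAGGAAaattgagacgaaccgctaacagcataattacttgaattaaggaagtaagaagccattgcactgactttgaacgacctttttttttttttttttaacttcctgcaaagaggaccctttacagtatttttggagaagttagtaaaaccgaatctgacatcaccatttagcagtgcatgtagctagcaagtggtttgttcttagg
Laptm5: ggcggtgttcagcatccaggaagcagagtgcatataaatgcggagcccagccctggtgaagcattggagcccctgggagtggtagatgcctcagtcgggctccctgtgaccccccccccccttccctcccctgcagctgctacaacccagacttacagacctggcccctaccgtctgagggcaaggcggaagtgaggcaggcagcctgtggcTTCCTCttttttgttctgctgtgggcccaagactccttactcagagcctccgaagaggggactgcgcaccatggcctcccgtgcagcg
Arhgdib: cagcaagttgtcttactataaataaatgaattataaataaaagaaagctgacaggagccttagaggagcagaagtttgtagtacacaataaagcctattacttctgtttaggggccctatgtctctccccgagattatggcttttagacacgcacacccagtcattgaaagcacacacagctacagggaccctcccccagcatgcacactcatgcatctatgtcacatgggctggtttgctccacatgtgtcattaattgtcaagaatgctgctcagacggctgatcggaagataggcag

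The libraries held 16858005 to 21846406 counts in genes. Levels are given in CPM, counts scaled to a library total of 1000000. Where a whole group had no count, up to 3 counts remain possible, or 0.0556 CPM in wildtype and 0.053 CPM in mutant. This limit and the intervals below cover counting error only. A lower bound of a fold change divides the pooled mutant level by the wildtype limit and leaves out the error of the mutant counts. Pax6 itself had 7093 to 7914 counts in the mutant and 13141 to 14970 in the wildtype libraries. W1 lay apart from the other libraries on the first principal component of the tested genes, and M1 was the only library with high Xist and no Ddx3y counts, so it was the only female one. The corneal label was checked with 12 corneal epithelial genes, among them Krt12, Krt5, Aldh3a1 and Pax6, all of which passed the low-count filter. Their summed level was 40866 to 56274 CPM in wildtype and 21302 to 28044 CPM in mutant corneas.

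RNA of the leukocyte genes was higher in the mutant corneas, and for most of these genes it was low in wildtype. Summed over the 45 members it was 533, 636 and 633 CPM in M1 to M3 and 142, 138 and 110 CPM in W1 to W3, so the groups lay far apart. Arhgdib, Itgam, Cd68 and Cd14 held most of both sums, a mean of 432 CPM in mutant and 106 CPM in wildtype. More leukocytes and more of this RNA per cell cannot be told apart in whole tissue. Which cells the RNA of these genes came from was not tested. In 35 of the 45 members every mutant library exceeded every wildtype library, which held for 11.2% of all genes with a count; the groups overlapped in the other 10, and no member was lower in every mutant library (8.71% of all genes). In wildtype 34 members averaged under 1 CPM, and 4 reached 5 CPM.

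Of the 45 members 38 passed the low-count filter, and 18 of them rose while none fell by the Benjamini-Hochberg adjusted quasi-likelihood test of edgeR at 0.05; 5.59% of all 15209 tested genes rose and 4.46% fell. No member fell by DESeq2 or limma-voom either, and 0 were lower at an unadjusted p under 0.05. Of the 18 members that rose, 11 averaged under 1 CPM in wildtype. Apart from Ptprc, these genes would not pass the filter on their wildtype libraries alone, so the count over the members that passed is a description. Without the filter all 45 could be fitted and 28 rose, against 5.53% of 28717 genes, and none fell, against 3.96%. That fit gave far smaller p-values for the same counts (Arhgdib, 4.8e-43 against 0.0003, adjusted p by the Benjamini-Hochberg adjusted quasi-likelihood test of edgeR), and its calls are used here only as an alternative. The median log2 difference of all 45 members in the unfiltered fit was 2.88, with members without a wildtype count set at their lower bound, and the median of all genes was -0.01. Leaving out a mutant library lowered the 18 to 9 (M1), 8 (M2) or 7 (M3). Leaving out a wildtype library gave 23 (W1), 15 (W2) or 11 (W3). With limma-voom Tyrobp, Itgal, Il2rb, Csf3r and Cd52 were no longer called.

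**Figure D1:**
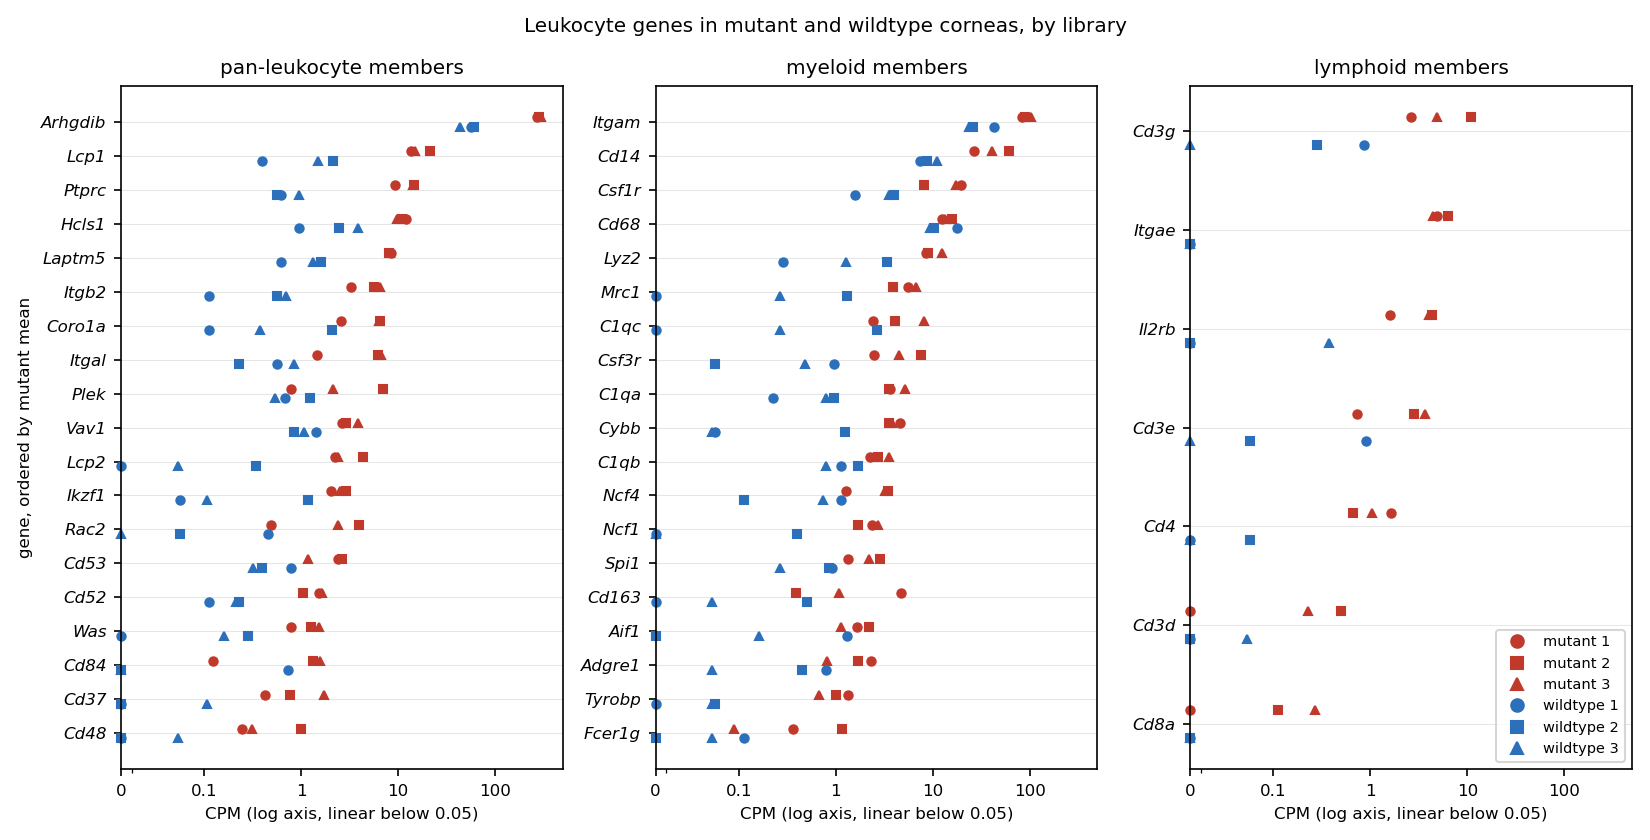
Level of each of the 45 leukocyte genes in each library, in CPM on a log axis that is linear below 0.05, with red for mutant and blue for wildtype; symbols mark replicates 1 to 3. The mutant points lie to the right of all wildtype points in 35 genes, and Arhgdib, Itgam, Cd14 and Cd68 stand apart by their wildtype level of 5 CPM or more.

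The pan-leukocyte surface genes were led by Ptprc, which encodes CD45, a phosphatase on all nucleated blood cells. Its level was 9.43, 14.5 and 14.2 CPM in M1 to M3 and 0.624, 0.568 and 0.963 CPM in W1 to W3. The lowest mutant library thus lay far above the highest wildtype one, and the log2 difference was 4.13 ± 0.37 (SE; adjusted p = 0.00083, quasi-likelihood test of edgeR, Benjamini-Hochberg). Cd52, a small glycosylated surface peptide of lymphocytes and monocytes, stood at 1.53, 1.05 and 1.67 CPM against 0.113, 0.227 and 0.214 CPM and rose by 2.89 ± 0.72 on the log2 scale. Its adjusted p of 0.042 was 0.072 to 0.20 when any 1 of the 6 libraries was left out, all by the Benjamini-Hochberg adjusted quasi-likelihood test of edgeR. The tetraspanin Cd53 averaged 2.07 ± 0.794 CPM in mutant and 0.504 ± 0.254 CPM in wildtype (SD, n = 3 each), a log2 difference of 2.02 ± 0.67 that did not pass. Cd84, an adhesion receptor of the SLAM family, overlapped between the groups because W1 held 13 counts and M1 held 2.

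Cd37, another tetraspanin, and Cd48, a SLAM family ligand, were too low to pass the filter. Cd37 had 7, 14 and 38 counts in M1 to M3 and 0, 0 and 2 in W1 to W3. The pooled ratio was 28.1, with an exact 95% counting interval of 7.45 to 238. For Cd48 the mutant counts were 4, 18 and 7 and the wildtype counts 0, 0 and 1, a ratio of 27.6 (4.58 to 1129). Neither gene's groups overlapped. Laptm5, a lysosomal membrane protein of blood cells that tunes receptor turnover, stood at 8.45, 7.99 and 8.37 CPM in the mutant libraries and 0.624, 1.59 and 1.34 CPM in the wildtype ones. The mutant libraries agreed closely with each other, and Laptm5 rose by 2.80 ± 0.42 (adjusted p = 0.0058, quasi-likelihood test of edgeR, Benjamini-Hochberg).

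Of the 7 genes that steer the leukocyte cytoskeleton 3 rose, among them Arhgdib, the member with the highest counts. Arhgdib, a GDP-dissociation inhibitor of small GTPases in blood cells, stood at 271, 283 and 295 CPM in M1 to M3 and at 56.3, 60.6 and 43.9 CPM in W1 to W3. It rose by 2.40 ± 0.15 on the log2 scale (adjusted p = 0.0003, quasi-likelihood test of edgeR, Benjamini-Hochberg), with the smallest SE of the 38 tested members. Lcp1, the actin-bundling L-plastin, stood at 13.5, 21.3 and 15.1 CPM against 0.397, 2.16 and 1.5 CPM and rose by 3.61 ± 0.54. Hcls1, a cortactin-like substrate of receptor kinases, stood at 12.1, 11.1 and 9.81 CPM against 0.965, 2.44 and 3.90 CPM and rose by 2.17 ± 0.48. In these 3 genes W1, W2 and W3 varied more in proportion than the mutant libraries did. By the Benjamini-Hochberg adjusted quasi-likelihood test of edgeR, the adjusted p of Hcls1 was 0.083 to 0.090 without M1, M2, M3 or W2.

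The other cytoskeletal members lay higher in all mutant libraries but did not pass. Coro1a, the actin-binding coronin of leukocytes, stood at 2.57, 6.49 and 6.39 CPM in mutant and 0.113, 2.10 and 0.374 CPM in wildtype, and W2 alone came near the mutant range; without W2 the adjusted p of 0.13 became 0.028 (quasi-likelihood test of edgeR, Benjamini-Hochberg). The guanine exchange factor Vav1 averaged 3.11 ± 0.629 CPM against 1.11 ± 0.286 CPM, and Was, the Wiskott-Aldrich actin nucleation factor, 1.20 ± 0.373 CPM against 0.148 ± 0.142 CPM (SD, n = 3 each). The small GTPase Rac2, under the filter, had 8, 71 and 53 counts in the mutant libraries and 8, 1 and 0 in the wildtype ones, so M1 and W1 were nearly alike. Lcp2, the SLP-76 adaptor of antigen receptor signalling, stood at 2.26, 4.33 and 2.39 CPM in M1 to M3. Its wildtype levels were 0, 0.341 and 0.0535 CPM, and it rose by 4.45 ± 1.02. The adjusted p of Lcp2 was 0.031, and 0.079 to 0.13 without M1, M2, M3 or W3 (quasi-likelihood test of edgeR, Benjamini-Hochberg). The transcription factor Ikzf1 averaged 2.48 ± 0.435 CPM against 0.452 ± 0.642 CPM (SD, n = 3 each). Plek, a protein kinase C substrate, averaged 3.32 ± 3.26 CPM against 0.822 ± 0.377 CPM (SD, n = 3 each). Neither passed with all libraries, and Ikzf1 did without W2 (adjusted p = 0.022, quasi-likelihood test of edgeR, Benjamini-Hochberg).

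All 4 leukocyte integrin genes among the members rose. Itgb2 encodes the shared beta 2 chain, which pairs with the alpha L chain of Itgal on most leukocytes and with the alpha M chain of Itgam on myeloid cells. Itgb2 stood at 3.31, 5.72 and 6.53 CPM in mutant and 0.113, 0.568 and 0.695 CPM in wildtype libraries, a rise of 3.48 ± 0.67 on the log2 scale. Itgal rose by 3.12 ± 0.75, with M1 at 1.47 CPM well below M2 and M3 at 6.27 and 6.75 CPM and the wildtype libraries at 0.227 to 0.856 CPM. The calls were lost for Itgb2 without M2 (0.067), M3 (0.086) or W2 (0.052) and for Itgal without M2 (0.13), M3 (0.15), W2 (0.099) or W3 (0.056), each an adjusted p by the Benjamini-Hochberg adjusted quasi-likelihood test of edgeR.

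Itgam was already abundant in wildtype corneas. It stood at 82.6, 90.5 and 103 CPM in M1 to M3 and 42.8, 26.1 and 23.7 CPM in W1 to W3, and rose by 1.58 ± 0.23, the smallest log2 difference among the 18 members that rose. Per kilobase of exon its level was 9.61 to 15.2 times that of Itgb2 in the mutant libraries and 20.7 to 229 times in the wildtype ones. Itgae, the alpha E chain by which intraepithelial lymphocytes bind E-cadherin, partners with another beta chain. It had 80, 113 and 99 counts in the mutant libraries and none in the wildtype ones. Its pooled mutant level was 92.8 times that of 3 counts over the wildtype group. The beta 7 chain gene Itgb7, its partner, stood at 222 to 307 counts in wildtype and 247 to 273 counts in mutant libraries, with a log2 difference of -0.01 ± 0.23.

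Among myeloid receptors Cd14, Csf1r and Csf3r rose. Cd14, the co-receptor for lipopolysaccharide, stood at 26.6, 61.8 and 40.6 CPM in mutant and 7.43, 8.74 and 11.1 CPM in wildtype libraries and rose by 2.24 ± 0.32 (adjusted p = 0.0044, quasi-likelihood test of edgeR, Benjamini-Hochberg). Csf1r, the receptor on which macrophage survival depends, stood at 19.6, 8.16 and 17.6 CPM against 1.59, 4.03 and 3.58 CPM and rose by 2.30 ± 0.46. Csf3r, the granulocyte colony-stimulating factor receptor, stood at 2.51, 7.66 and 4.46 CPM against 0.965, 0.0568 and 0.481 CPM and rose by 3.27 ± 0.85. M2 was the highest mutant library for Csf3r and the lowest for Csf1r. The call of Csf1r was lost without M1 (0.075) or M3 (0.083), and that of Csf3r when any library but W1 was left out (0.071 to 0.18), all adjusted p by the Benjamini-Hochberg adjusted quasi-likelihood test of edgeR.

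Macrophage receptors and markers were less uniform. Cd68, a lysosomal glycoprotein of macrophages, stood at 12.4, 15.8 and 13.3 CPM in mutant and 18.0, 10.4 and 9.47 CPM in wildtype libraries. The groups overlapped, and the log2 difference was 0.13 ± 0.28 (0.48 without W1 and -0.06 without W3). Mrc1, the mannose receptor of tissue macrophages, stood at 5.57, 3.88 and 6.80 CPM in mutant and 0, 1.31 and 0.267 CPM in wildtype libraries, a log2 difference of 3.36 ± 1.04 that passed without W1 (adjusted p = 0.033) or W2 (0.035) but not with all libraries (0.085, quasi-likelihood test of edgeR, Benjamini-Hochberg). Cd163, the haemoglobin scavenger receptor, had 78 counts in M1 but 7 and 24 in M2 and M3, against 0, 9 and 1 in W1 to W3, and so overlapped. The F4/80 antigen gene Adgre1 averaged 1.62 ± 0.763 CPM against 0.434 ± 0.371 CPM (SD, n = 3 each). Aif1, which encodes the calcium-binding protein IBA1, averaged 1.67 ± 0.547 CPM against 0.489 ± 0.712 CPM. W1 held 23 of its 26 wildtype counts, and without W1 its adjusted p of 0.43 became 0.048 (quasi-likelihood test of edgeR, Benjamini-Hochberg).

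The ITAM adaptors carry activating receptors that lack signalling tails of their own. Tyrobp (DAP12) had 22, 18 and 15 counts in M1 to M3 and 0, 1 and 1 in W1 to W3, a pooled ratio of 26.2 with an exact 95% counting interval of 6.92 to 222. It rose in the test (adjusted p = 0.031), but not when any library other than W1 was left out (0.090 to 0.13, quasi-likelihood test of edgeR, Benjamini-Hochberg). Fcer1g, the Fc receptor gamma chain, had 6, 21 and 2 counts against 2, 0 and 1 and overlapped. Spi1, the gene of PU.1, stood at 1.35, 2.89 and 2.21 CPM in mutant and 0.908, 0.852 and 0.267 CPM in wildtype libraries. Its groups did not overlap, and its log2 difference of 1.66 ± 0.67 did not pass.

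The complement C1q chains, made largely by macrophages, lie side by side on chromosome 4 of GRCm38, from the start of C1qb at 136880129 to the end of C1qa at 136898803. C1qa stood at 3.67, 3.55 and 5.22 CPM in mutant and 0.227, 0.965 and 0.802 CPM in wildtype libraries and rose by 2.63 ± 0.61. Its adjusted p of 0.031 was 0.058 to 0.15 when any library other than W1 was left out (quasi-likelihood test of edgeR, Benjamini-Hochberg). C1qb averaged 2.83 ± 0.631 CPM against 1.21 ± 0.456 CPM without overlap, and C1qc 4.88 ± 2.94 CPM against 0.979 ± 1.47 CPM with overlap (SD, n = 3 each). Neither passed the test, and W2 had the highest wildtype level of all 3 chains.

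The phagocyte oxidase makes superoxide from the membrane subunit of Cybb and the cytosolic subunits of Ncf1 and Ncf4. All 3 genes were higher in every mutant than in every wildtype library, and none passed with all libraries. Cybb stood at 4.59, 3.55 and 3.78 CPM against 0.0567, 1.25 and 0.0535 CPM, and Ncf1 at 2.39, 1.72 and 2.75 CPM against 0, 0.397 and 0 CPM. In both genes W2 was the highest wildtype library, and without it the adjusted p was 0.0077 for Cybb and 0.021 for Ncf1 (0.11 and 0.077 with all libraries, quasi-likelihood test of edgeR, Benjamini-Hochberg). Ncf4 averaged 2.64 ± 1.18 CPM against 0.666 ± 0.516 CPM (SD, n = 3 each). Lyz2, the lysozyme of myeloid cells, stood at 8.57, 8.88 and 12.5 CPM in mutant and 0.284, 3.35 and 1.28 CPM in wildtype libraries. Its log2 difference of 2.60 ± 0.71 had an adjusted p of 0.057, and of 0.021 without W1 and 0.027 without W2 (quasi-likelihood test of edgeR, Benjamini-Hochberg).

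The lymphoid members had the lowest wildtype levels of the 3 classes. Cd4, the T helper co-receptor also found on some macrophages, had 27, 12 and 23 counts in M1 to M3 and 0, 1 and 0 in W1 to W3, a pooled ratio of 59.1 with an exact 95% counting interval of 10.2 to 2372. Il2rb, the interleukin-2 and interleukin-15 receptor beta chain of T and NK cells, stood at 1.59, 4.33 and 4.01 CPM in mutant libraries. In wildtype W1 and W2 had no Il2rb count and W3 had 0.374 CPM, and the rise was 4.63 ± 1.20 on the log2 scale. Both calls depended on single libraries: by the Benjamini-Hochberg adjusted quasi-likelihood test of edgeR the adjusted p of Cd4 was 0.061 to 0.11 when any library other than W1 was left out, and that of Il2rb 0.088 to 0.17 without M1, M2, M3 or W2.

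The CD3 chain genes, which adjoin each other on chromosome 9, did not pass with all libraries. Cd3g stood at 2.63, 10.8 and 4.86 CPM in mutant and 0.851, 0.284 and 0 CPM in wildtype libraries, without overlap, and its log2 difference was 4.0 ± 1.06 (adjusted p = 0.051, quasi-likelihood test of edgeR, Benjamini-Hochberg). Cd3e stood at 0.735, 2.83 and 3.65 CPM against 0.908, 0.0568 and 0 CPM, so W1 lay above M1. Without W1 both passed, at an adjusted p of 0.015 for Cd3g and 0.018 for Cd3e (quasi-likelihood test of edgeR, Benjamini-Hochberg). Cd3d had 0, 9 and 5 counts in mutant and 0, 0 and 1 in wildtype libraries. Cd8a, the cytotoxic T cell co-receptor, had 0, 2 and 6 counts in mutant and none in wildtype libraries. Its groups overlapped, since M1 like wildtype had none. The pooled mutant level was 2.54 times that of 3 counts over the wildtype group. The unfiltered fit did not call Cd8a (adjusted p = 0.43, quasi-likelihood test of edgeR, Benjamini-Hochberg).

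**Figure D2:**
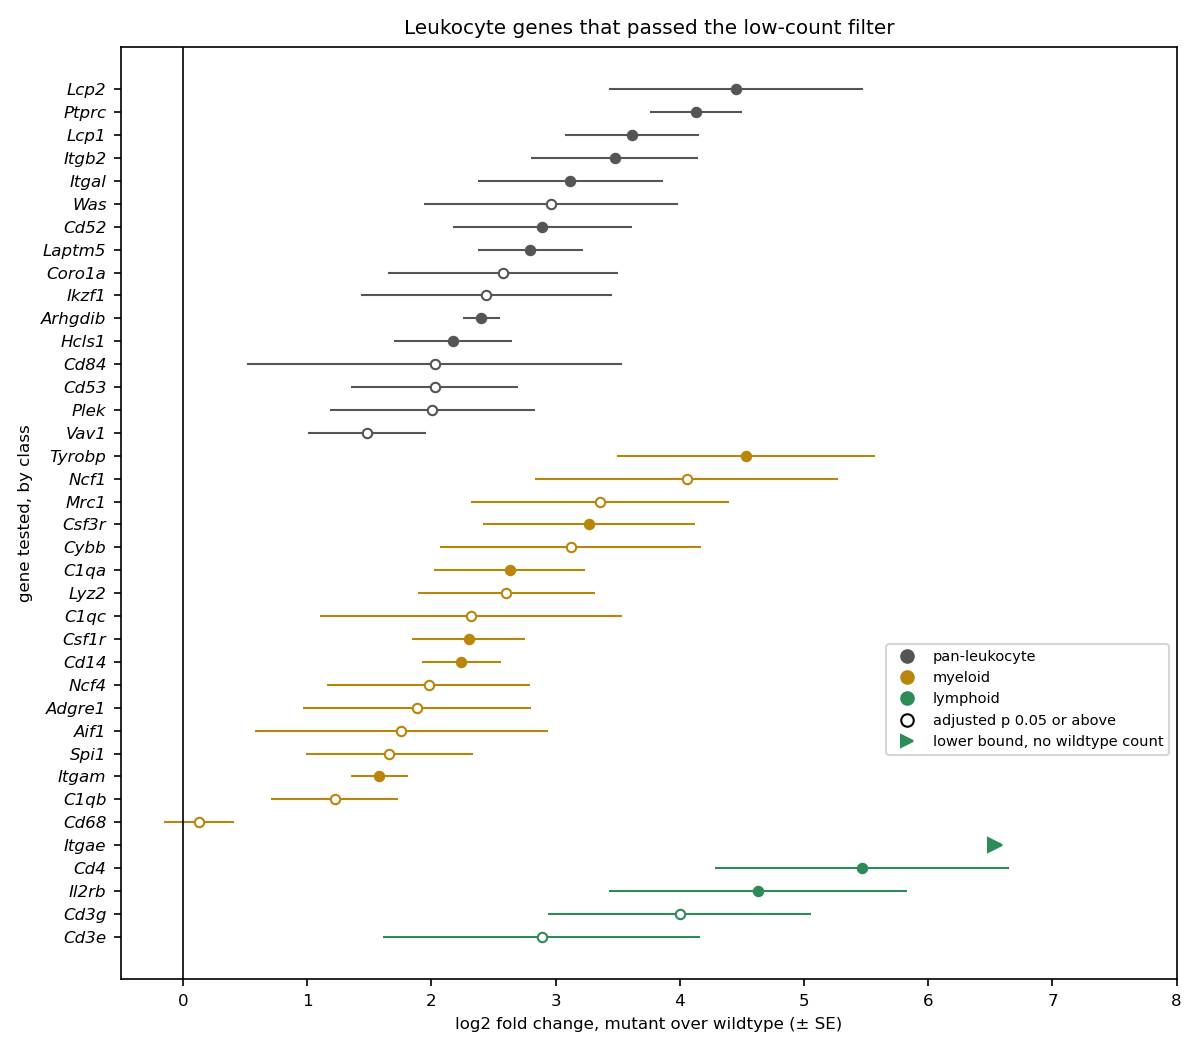
Log2 fold change of mutant over wildtype (± SE) for the 38 leukocyte genes that passed the low-count filter, coloured by class; filled points passed an adjusted p of 0.05 by the Benjamini-Hochberg adjusted quasi-likelihood test of edgeR, and the arrowhead of Itgae is its lower bound. Every estimate lies above 0, and Cd68 (0.13 ± 0.28) lies nearest to it.

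By class, 9 of 16 tested pan-leukocyte, 6 of 17 tested myeloid and 3 of 5 tested lymphoid members rose, against 5.59% of all tested genes. In wildtype 14 pan-leukocyte, 13 myeloid and all 7 lymphoid members averaged under 1 CPM. None of the 5 tested lymphoid members would pass the filter on its wildtype libraries alone, so these counts are a description. The summed pan-leukocyte level was 335, 385 and 384 CPM in M1 to M3 and 63.9, 74.9 and 56.2 CPM in W1 to W3. The myeloid sum was 186, 225 and 231 CPM against 76.8, 62.9 and 53.3 CPM, and the lymphoid sum 11.5, 25.5 and 18.5 CPM against 1.76, 0.397 and 0.428 CPM. The ratio of group means was 5.66 for the pan-leukocyte, 3.33 for the myeloid and 21.5 for the lymphoid sum. Differences between the classes were not tested. Left out in the order M1, M2, M3, W1, W2 and W3, the libraries left 6, 4, 4, 9, 7 and 6 pan-leukocyte members called, then 2, 3, 2, 9, 7 and 3 myeloid and 1, 1, 1, 5, 1 and 2 lymphoid ones.

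Arhgdib, Itgam, Cd68 and Cd14 held most of these sums. Together they made up 106 ± 18.2 CPM of the wildtype and 432 ± 34.5 CPM of the mutant total (SD, n = 3 each). The other 41 members summed to 17.9, 32.4 and 21.6 CPM in wildtype and 141, 185 and 181 CPM in mutant libraries, a ratio of group means of 7.05 against 4.07 for the 4. Per kilobase of exon Arhgdib had the highest mean of all members in both genotypes, 31.4 CPM per kilobase in wildtype and 166 in mutant. Its level per kilobase was 489 to 1146 times that of Ptprc in the wildtype libraries and 209 to 308 times in the mutant ones. The exons of Arhgdib overlap those of Pde6h on the opposite strand. Itgam shares exon sequence with the gene Gm49368 on its own strand, and counts of both are therefore uncertain. Opposite-strand exons overlap 10 members in all (Arhgdib, Coro1a, Csf1r, Cd3e, Cd52, Lcp1, Lcp2, Ncf1, Plek and Cd37), and whether counting used strand is not given in the sources.

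**Figure D3:**
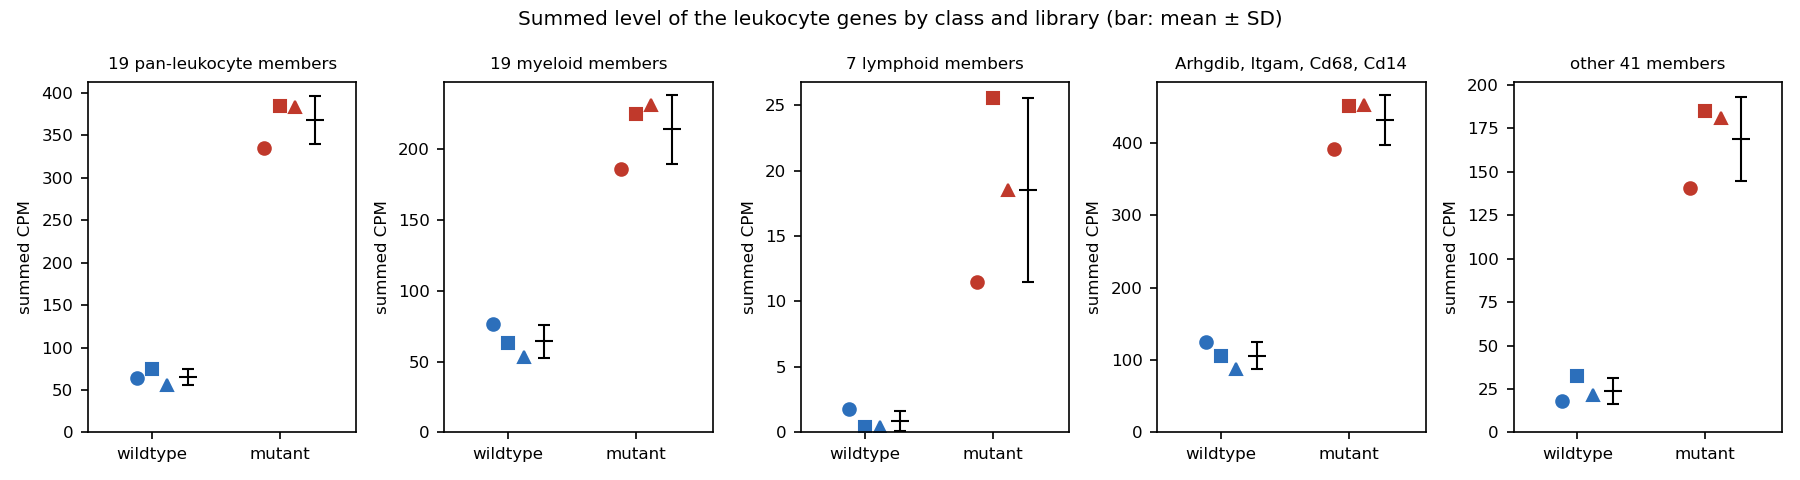
Summed CPM of the leukocyte genes in each library by class, and with the 4 members most abundant in wildtype set apart from the other 41; circles, squares and triangles are replicates 1 to 3 and the bars give the mean ± SD of 3 libraries. Mutant and wildtype libraries do not overlap in any panel, and M1 is the lowest mutant library in each.

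Libraries within a genotype differed from each other. M1 was the lowest mutant library in 29 of the 45 members, in 15 of 19 pan-leukocyte, 9 of 19 myeloid and 5 of 7 lymphoid ones. It was the highest in 8, namely Cd163, Csf1r, Adgre1, Tyrobp, Cybb, Laptm5, Hcls1 and Cd4. Among wildtype libraries W1 had no count in 14 members, W2 in 9 and W3 in 8. W1 had no Mrc1, C1qc or Cd163 count and the fewest Lyz2 counts of its group. It also had the most Cd3e, Cd3g, Aif1 and Cd84 counts. Of the 19 myeloid members W1 was the lowest wildtype library in 8 and the highest in 8, the latter including Itgam, Cd68, Spi1 and Adgre1. Of the lymphoid members M1 lacked Cd3d and Cd8a.

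Markers of other tissues moved with the genotype as well. Of 12 corneal stroma genes 6 rose and 1 fell; their summed level was 1506 to 5734 CPM in mutant and 555 to 856 CPM in wildtype corneas, and none was at 0 over a group. Of 12 vessel endothelium genes none passed, with 85.3 to 199 CPM in mutant and 11.9 to 84.5 CPM in wildtype. M1 was the highest library of both lists, W1 was the lowest, and W1 had no Cdh5 or Tie1 count. Conjunctival and goblet genes rose in 6 of 12 cases with no fall, at 16412 to 17922 CPM against 5168 to 8629 CPM, with Tff3 at 0 in all libraries. Of 12 corneal epithelial genes 5 fell and 1 rose. Blood genes did not separate the genotypes: of 10 erythrocyte and platelet genes only Ppbp, a platelet chemokine, rose, from no wildtype count to 51, 23 and 121 counts. The blood sum was 14.3 to 18.4 CPM in mutant and 7.43 to 15.7 CPM in wildtype, with Gp9 at 0 in all libraries. The part of these tissues in the leukocyte differences was not tested.

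**Figure D4:**
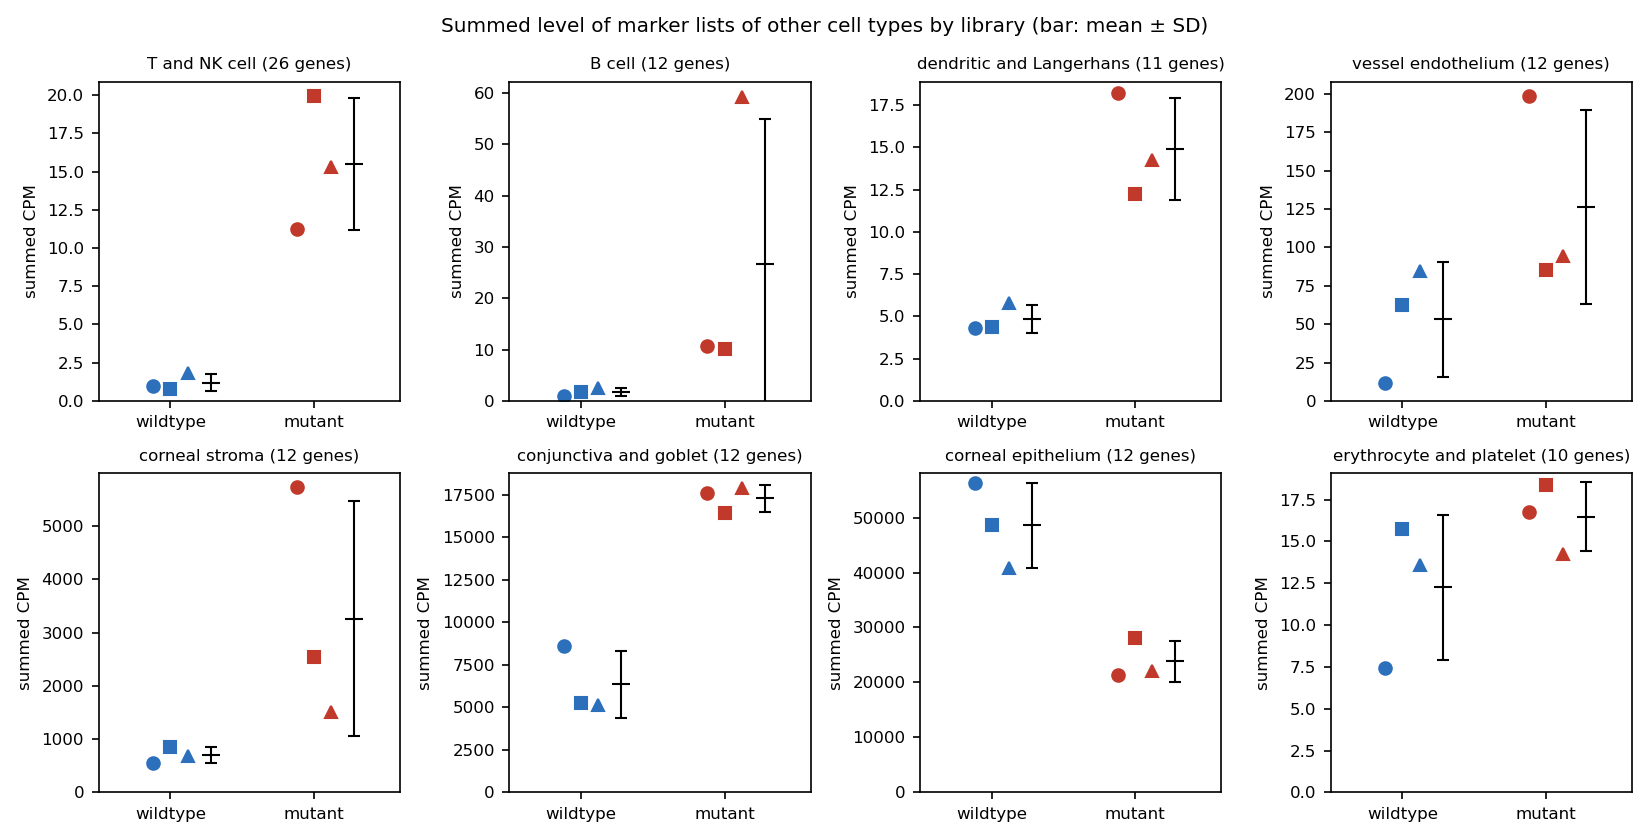
Summed CPM in each library for 8 marker lists of other leukocytes and tissues; circles, squares and triangles are replicates 1 to 3, and the bars give the mean ± SD of 3 libraries, cut off at 0 where the SD exceeds the mean. The T and NK cell list separates the genotypes (11.3 to 19.9 against 0.795 to 1.82 CPM), while the erythrocyte and platelet list overlaps.

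Related genes of the same cells, taken from lists that hold none of the 45 members, were read in the same fit. Of 26 T and NK cell genes 13 had no wildtype count, and 1 of these, Cd8b1, had no count in any library. Of the 26 genes 5 passed the filter and 2 rose. Cd247, the CD3 zeta chain, had 26, 24 and 25 mutant counts and none in wildtype, and Il7r, the interleukin-7 receptor alpha chain, 23, 41 and 64 against 0, 2 and 0. The T cell receptor constant gene Trdc of gamma delta T cells had 29, 49 and 24 counts against 10, 1 and 1 and did not pass. Of 12 B cell genes Igkc and Blk rose. Igkc, the immunoglobulin kappa constant region, had 829 counts in M3 but 86 and 63 in M1 and M2, against 1, 20 and 1 in wildtype. Blk, a SRC family kinase, had 30, 67 and 41 counts against 0, 1 and 0. Cd79a, Cr2 and Mzb1 had no wildtype count.

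Of 16 ITAM and kinase signalling genes 4 rose and none fell. They were the kinase Lyn (1.6 ± 0.24 on the log2 scale, ± SE), the phosphoinositide 3-kinase catalytic chain Pik3cd (2.27 ± 0.33), the inositol phosphatase Inpp5d (3.45 ± 0.80) and the adaptor Sla (4.27 ± 1.06). Syk, the kinase that docks on ITAM chains, was lower in every mutant library, at 987, 1236 and 1220 counts against 1535, 1342 and 1625, without passing (-0.44 ± 0.13). Of 16 further cytoskeletal and oxidase genes 3 rose and 1 fell, and their median log2 difference was 2.02 in the unfiltered fit, where the median of all genes was -0.01. Fyb, an adaptor that binds SLP-76, rose by 2.70 ± 0.48, Arhgap30 by 1.86 ± 0.37 and Dock2, a RAC activator of leukocytes, by 3.66 ± 0.83.

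Of 16 further macrophage genes 1 rose, the lysosomal protease Ctss, by 0.90 ± 0.21 on the log2 scale, and none fell. In the unfiltered fit 3 of the 16 rose and 11 had a log2 difference above 0. Their median there was 1.48, where that of all genes was -0.01. The efferocytosis receptor Mertk did not pass (-0.61 ± 0.37), nor did the fractalkine receptor Cx3cr1 (1.61 ± 0.68). Of 11 dendritic and Langerhans cell genes 1 rose, the integrin alpha X gene Itgax, which had 20, 34 and 34 counts in mutant and 0, 1 and 2 in wildtype libraries. Of 14 neutrophil genes Ltf, lactoferrin, rose by 4.30 ± 0.55, and Padi4 fell. The neutrophil calprotectin gene S100a9 had 5, 324 and 267 counts in M1 to M3 and 31, 2 and 0 in W1 to W3, and overlapped because of M1. Camp, Elane and Ngp, granule genes of neutrophils, had no count in any library. Cxcr2, Fpr1, Mmp8 and Retnlg had counts in mutant libraries only. Of the 11 neutrophil genes with a count, 9 had a log2 difference above 0 in the unfiltered fit, with a median of 3.25. That fit called 3 higher and 1 lower. Of 6 eosinophil and basophil genes none passed the filter, and Ear6, Il5ra, Mcpt8 and Prg2 were at 0 throughout.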

How the data were processed

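Counts per gene were deposited for 6 corneal libraries, 1 file each. Per the labels' protocols, total RNA was made into libraries with a stranded kit for very small inputs and sequenced as paired reads. Per the submitters' processing notes, the tools were HISAT2 and HTSeq, with Trim Galore, SAMtools and edgeR, on GRCm38; no version, setting or strand option is given there. The deposited values are raw counts, not normalized by the authors. The 5 summary lines of each file, 50.3% to 55.7% of its total, were left out. Of 55421 gene IDs 55240 matched GENCODE M21.

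In R 4.3.3, edgeR 4.0.16 was used with filterByExpr (minimum count 10, total 15), TMM scaling and the quasi-likelihood test on all 15209 genes passing, with Benjamini-Hochberg adjustment at 0.05 and genotype as the only term. The SE of a log2 difference was taken as its absolute value over the square root of the quasi-likelihood F statistic. CPM uses each library's TMM-scaled total. Alternatives used DESeq2 1.42.0, limma 3.58.1, other scalings and filters, and each library left out. The method was tested on simulated counts. Whether libraries come from separate animals rests on the series design; otherwise p-values measure only the spread between samples. Where a group kept 2 libraries, the spread was pooled over both groups. The members and lists were chosen with earlier results of these data known. All members are accounted for; those called, those without wildtype counts and the ITAM and CD3 genes are given by library, as are up to 3 called genes of each related list. Further genes named or given by library were chosen after their values were seen. A planned search of proteins for ITAM patterns was not run.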

Additional observations from a re-analysis of the deposited data

How the results depend on the processing

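No paired analysis was possible because the labels give the 2 genotypes no shared replicate numbers. The number of members that rose (18) was 7 to 23 with 1 library left out and 28 without the low-count filter; for pan-leukocyte members it was 4 to 9, for myeloid members 2 to 9, 12 without the filter and 10 by DESeq2, and for lymphoid members 1 to 5, and 5 without the filter. Over all genes 850 rose and 679 fell; with 1 library left out 340 to 1227 rose and 271 to 847 fell, without the filter 1588 and 1137, and by DESeq2 1325 and 1033. The summed log2 difference was 2.51 for pan-leukocyte and 1.75 for myeloid members, and 2.92 and 2.55 without the 4 members most abundant in wildtype, an alternative chosen after seeing the data. Only Cd68 changed direction among the 38 tested members in any alternative, to -0.060 without W3, and it was 0.54 without M1 and W1. Calls of 7 members (Ptprc, Laptm5, Arhgdib, Cd14, Itgam, Itgae and Lcp1) held with each single library left out, and 11 lost theirs; limma-voom dropped 5, the unfiltered fit Cd52, and unscaled totals Il2rb. Without M1 and W1 together, also chosen after seeing the data, 20 of 40 tested members rose. RLE and upper-quartile factors and removal of structural RNA genes left every member's call as it was. Low counts limit the lymphoid members and those under 1 CPM.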

Other observations

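Some genes that are usually read as leukocyte markers fell in mutant corneas, as 4.46% of all tested genes did, while the 45 members did not. Most genes of the same lists went the other way in the unfiltered fit. A log2 difference above 0 held for 13 of 16 cytoskeletal and oxidase, 9 of 11 neutrophil and 5 of 6 mast cell genes with a count. Fermt3, the integrin activator kindlin-3 of blood cells, had 423, 514 and 668 counts in M1 to M3 and 1740, 1334 and 1139 in W1 to W3, and fell by 1.48 on the log2 scale (SE 0.19; adjusted p = 0.0028, quasi-likelihood test of edgeR, Benjamini-Hochberg). Padi4, the peptidylarginine deiminase of neutrophils, had 348, 809 and 511 counts against 1947, 1251 and 1195 and fell by 1.46. Kit, a receptor of mast cells, melanocytes and some epithelia, fell by 1.09. In each of the 3 genes all mutant libraries lay below all wildtype libraries, which held for 14.7% of all tested genes. Fermt3 exons overlap those of Trpt1 on the opposite strand. Defining mast cell genes were at or near 0: Fcer1a and Ms4a2 had no count in any library. Cma1, Mcpt4 and Tpsb2 had counts in mutant libraries only, and no gene of the mast cell list was called higher.

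Levels of genes whose products work together moved by different amounts. The wildtype corneas held many Itgam counts (444 to 754) beside few of its partner Itgb2 (2 to 13), and the mutant ones 1349 to 2293 beside 54 to 145. Itgae appeared from no wildtype count while its partner Itgb7 was already present at 222 to 307 counts. Whether these unequal changes lie in 1 cell type or several was not tested.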
